A study of Mus musculus with 2 samples.

Results

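The genes described are 40 genes of macrophages, dendritic cells and the MHC class II pathway. They were chosen by name as a list, with earlier results of these data known. Of them, 39 had at least 1 probe set annotated to them alone, out of 12393 genes with such a probe set on the array, and these 39 genes had 59 probe sets. The list holds 7 class II and antigen presentation genes and 33 genes of macrophages, phagocyte receptors and C1q. H2-DMb1 was the member without a probe set of its own. Expression was measured on Affymetrix arrays in mouse uterus at the eighth day of pregnancy, in pieces cut from the wall between implantation sites. The females were 4 months old and had a C57Bl/6J X OLA129 background. A control sample, whose alleles the labels do not detail, and a Cbs null sample, from females homozygous for loss of cystathionine beta-synthase, gave 1 array each. The labels do not tell whether several animals were pooled for an array, so no difference has a replicate check and no p-value is given.

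Macrophages are the phagocytes of the uterine wall, which depend on signalling from CSF1 through its receptor and clear dead cells through Fc, scavenger and complement receptors. Macrophages, dendritic cells and B cells cut proteins in endosomes, load the peptides onto MHC class II molecules and show them to helper T cells. The invariant chain Cd74 guards the empty class II groove, H2-DM exchanges its remnant for peptide, and the coactivator CIITA switches the whole set on through a promoter module of X and Y boxes. C1q, the recognition subunit of the classical complement pathway, is made in large part by tissue macrophages.

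The promoter module is shown because it is read from sequence and not from the signals, although not every class II member could be searched. Promoter sequences were available in RefSeq (GRCm38.p6) for 28 members, of which 4 were class II members, and the 120 bases before the annotated start of 3 class II genes follow, 5′ to 3′ on the strand of the gene. Capitals mark an X core, GNAAC, and a Y box core, GATTGG.
H2-Aa: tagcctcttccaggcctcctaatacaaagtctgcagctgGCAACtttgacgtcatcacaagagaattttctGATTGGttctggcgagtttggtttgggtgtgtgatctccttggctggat
H2-Eb1: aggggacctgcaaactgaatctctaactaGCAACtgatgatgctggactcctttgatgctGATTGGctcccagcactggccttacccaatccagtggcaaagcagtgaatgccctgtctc
H2-DMb1: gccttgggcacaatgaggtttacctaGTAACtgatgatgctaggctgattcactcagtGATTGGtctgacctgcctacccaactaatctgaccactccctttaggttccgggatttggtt
They lie at chr17:34287824-34287943 on the minus strand for H2-Aa, and on the plus strand at chr17:34305747-34305866 for H2-Eb1 and chr17:34153071-34153190 for H2-DMb1. The cores are separated by 27 bases in H2-Aa, 26 in H2-Eb1 and 27 in H2-DMb1.

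This pair, with 24 to 30 bases between the cores on either strand, was defined after the sequences had been read. It was found in the 250 bases upstream of 3 of the 4 class II members, of none of the 24 other members with a promoter sequence, and of 121 genes in the whole table (0.448%). H2-DMa was the class II member without it. The Y box core alone, ATTGG on either strand, which overlaps the GATTGG of the pair, was in a window of all 4 class II members, 45.8% of the other members and 37.5% of all genes. A longer X1 box pattern, searched on either strand, matched 1 class II member, H2-DMb1, and 0.703% of all genes. The core GAGGAA, bound by the myeloid factor PU.1 and searched on both strands, was upstream of 14 of the 24 other members (58.3%), 1 class II member and 25.9% of all genes. Such matches describe the letters of a window and not binding.

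Both arrays had been scaled alike, with a median signal of 74.55 in control and 75.6 in Cbs null. Weak signals have no reliable order, so values below 43.2 (percentile 40 of the pooled signals) were set to that floor. A gene passed the signal filter when its mean log2 signal over both arrays reached it. Cbs read 79.8 in control and 42.6 in Cbs null, the direction its label gives, with the Cbs null signal just below the floor. Its other probe set, at 39.8 and 25.1, was below the floor on both arrays, so this check rests on 1 weak probe set. The log2 ratio is always that of Cbs null over control, and pairs of probe sets for the same gene gave it a technical SD of 0.22 (n = 2884 genes), which leaves out variation between mice.

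As a group, the members had modestly higher signals in Cbs null than in control. The median log2 ratio was 0.46 over the 32 members that passed the filter, against 0.02 over the 8170 genes of the array that did. Of those 32 members, 27 were higher in Cbs null and 5 lower, where 53.6% of all genes that passed were higher and 46.2% lower. The same shares apply to the direction counts of each smaller group and list below. At least 1.5-fold higher were 7 members, namely C1qa, C1qc, H2-Eb1, Lyz2, Itgax, Aif1 and Csf1r, against 3.64% of all genes that passed. Aif1 passed only through its Cbs null signal, so its direction was fixed by the filter, and the count is 6 (3.23% of all such genes) where both signals had to exceed the floor. At least 1.5-fold lower was none, against 3.34%, and with values raised to the floor no member was called 2-fold higher, against 0.796%, or 2-fold lower, against 0.661%. For Aif1, below the floor in control, a 2-fold difference is not excluded. Without any filter, the deposited signal was higher in Cbs null for 30 of the 39 members and lower for 9, where 51.9% of all genes were higher. Since whole tissue was used, more cells of a type and more RNA per cell cannot be told apart.

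**Figure D1:**
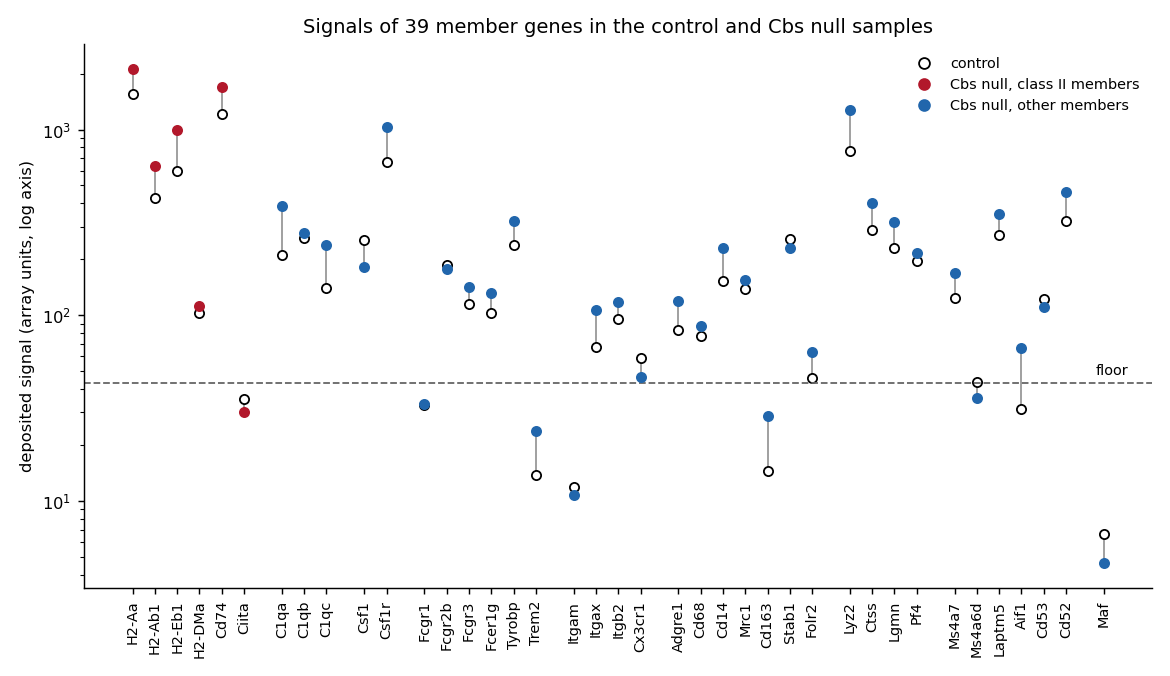
Deposited signal (log axis) of the brightest probe set of each of the 39 member genes, ordered by role, with open circles for the control sample and filled circles for the Cbs null sample (1 array each); the dashed line is the floor at 43.2. Most filled circles lie a little above their open partner, Csf1 lies below it, and 6 genes, among them Ciita and Itgam, lie below the floor in both samples.

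The class II molecules themselves were among the brightest members. H2-Aa, the alpha chain of the I-A molecule, read 1548.3 in control and 2125.5 in Cbs null, 1.37-fold higher, and its other probe set read 297.0 and 393.6. H2-Ab1, the beta chain that pairs with it, read 429.7 and 634.9 in its brightest probe set, 1.48-fold higher. Its remaining probe sets read 212.9 and 290.8, and 129.5 and 176.1. All 5 probe sets of the I-A chains were thus higher in Cbs null, within a narrow range of log2 ratios from 0.41 to 0.56.

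H2-Eb1, the beta chain of the I-E molecule, read 596.5 and 992.8, 1.66-fold higher and the furthest apart of the class II members. H2-Ea, the alpha chain I-E needs, gave at most 10.2 in any of its 3 probe sets, in either sample. C57BL/6 mice are known to lack a working promoter for this gene. Cd74, the invariant chain, read 1210.5 and 1700.9, 1.41-fold higher, a ratio close to that of the I-A chains.

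The peptide exchange factor differed less. H2-DMa, its alpha chain, read 103.0 in control and 112.6 in Cbs null, a log2 ratio of 0.13, within the technical SD. The beta chain genes H2-DMb1 and H2-DMb2 share a pair of probe sets, which read 49.8 and 57.0, and 66.3 and 68.1, so their ratios of 0.19 and 0.04 also lay within it. Ciita, the coactivator, was below the floor on both arrays, with 35.4 and 30 in its brighter probe set, so no ratio is given for it.

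**Figure D2:**
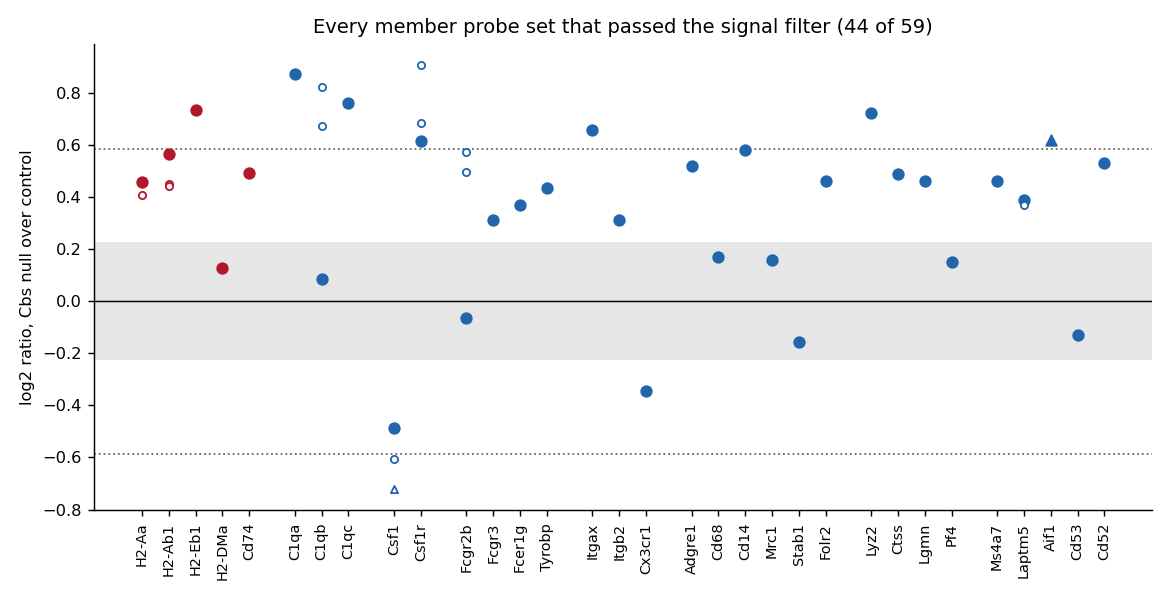
Log2 ratio of Cbs null over control for the 44 of 59 member probe sets that passed the signal filter, with class II members in red and the others in blue; large filled symbols are the probe set that stands for a gene, small open ones its others, and triangles have 1 of the arrays below the floor. The grey band is 1 technical SD (0.22) either side of 0 and dotted lines are 1.5-fold. The probe sets of C1qb spread over 0.74 and those of Fcgr2b over 0.64. All 3 Csf1 points lie below the band, and the direction of the triangle among them was fixed by the filter.

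The genes of the 3 C1q chains, which lie next to each other on chromosome 4, had the highest median log2 ratio among the groups of at least 3 members that passed, 0.76. C1qa, the A chain, read 212.0 in control and 388.3 in Cbs null, 1.83-fold higher. C1qc, the C chain, read 140.4 and 238.1, 1.70-fold higher. C1qb, the B chain, depended on the probe set. Its brightest, an _x_at probe set, read 261.8 and 277.9, a log2 ratio of 0.09, whereas the others read 191.0 and 304.3, and 174.5 and 308.3, ratios of 0.67 and 0.82. These were close to the A and C chains, and with the mean over its probe sets C1qb stood at 0.53.

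The CSF1 ligand and its receptor differed in opposite directions. Csf1r, the receptor kinase that macrophages need for survival, read 669.1 in control and 1025.6 in Cbs null, 1.53-fold higher. Its other probe sets read 241.0 and 387.0, and 83.6 and 156.6, with log2 ratios of 0.68 and 0.91. Csf1, the growth factor, which uterine epithelium makes in pregnancy, read 253.6 and 180.9, 1.4-fold lower. Its second probe set read 73.4 and 48.2, 1.52-fold lower, and another read 71.2 and then 37.4, at least 1.65-fold lower. The remaining probe set was below the floor on both arrays. All 3 Csf1 probe sets that passed were thus lower in Cbs null and all 3 of Csf1r higher. The Csf1 probe set at 71.2 passed only through its control signal, so its direction was fixed by the filter. Il34, the other ligand of the receptor, was below the floor in both samples (8.9 and 26.4).

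Of the 6 Fc receptor and adaptor genes, 4 passed, with a median log2 ratio of 0.34. Of these 4, 3 were higher in Cbs null and 1 lower, where 53.6% of all genes that passed were higher. Tyrobp, the adaptor of many activating myeloid receptors, read 237.5 in control and 320.9 in Cbs null, 1.35-fold higher. Fcer1g, the common Fc receptor gamma chain, read 102.2 and 132.0, 1.29-fold higher, and Fcgr3, a low-affinity activating receptor for IgG, read 114.2 and 141.6, 1.24-fold higher. Fcgr2b, the inhibitory receptor for IgG, gave 185.6 and 177.6 in its brightest probe set, a log2 ratio of -0.06, but 0.57 and 0.49 in the other pair that passed, so its direction was not settled. Fcgr1, the high-affinity receptor, and Trem2, a lipid-sensing receptor that signals through Tyrobp, were below the floor on both arrays.

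The member most typical of dendritic cells is Itgax, the CD11c integrin chain. It read 67.6 in control and 106.6 in Cbs null, 1.58-fold higher, a weak signal on 1 probe set. Itgb2, the beta chain common to the leukocyte integrins, read 95.5 and 118.4, 1.24-fold higher. Itgam, the CD11b chain, was below the floor in both (11.8 and 10.8). Cx3cr1, the fractalkine receptor, read 59 and 46.4, 1.27-fold lower and close to the floor in Cbs null.

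Surface markers of macrophages varied among themselves. Cd14, the lipopolysaccharide co-receptor, read 153.4 in control and 229.2 in Cbs null, 1.49-fold higher. Adgre1, which encodes the F4/80 antigen, read 83.5 and 119.6, 1.43-fold higher. Folr2, a folate receptor of resident macrophages, read 45.8 and 63.1, 1.38-fold higher from a signal hardly over the floor.

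Other surface members hardly differed. Cd68, a lysosomal glycoprotein, read 77.5 and 87.2, and the mannose receptor gene Mrc1 137.8 and 153.9, log2 ratios of 0.17 and 0.16, both within the technical SD. Stab1, a scavenger receptor that endothelium also makes, read 256.7 and 230.1, a log2 ratio of -0.16. The haemoglobin scavenger receptor gene Cd163 was below the floor in both samples, at 14.4 and 28.8. The 6 of 7 members of this group that passed had a median log2 ratio of 0.32, of which 5 were higher and 1 lower.

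The lysosomal and secreted members were all higher. Lyz2, the lysozyme of macrophages, read 770.6 in control and 1271.5 in Cbs null, 1.65-fold higher. Its near-identical copy Lyz1 may share signal with it, so the value is uncertain as that of a single gene. Ctss, the protease that trims the invariant chain, read 286.3 and 401.8, 1.4-fold higher. Lgmn, an asparaginyl endopeptidase of the endosome, read 231.3 and 318.6, 1.38-fold higher. The log2 ratios of Ctss and Lgmn, 0.49 and 0.46, were close to those of Cd74 and H2-Aa. Pf4, a chemokine of platelets that macrophages also make, read 195.5 and 217.0, a log2 ratio of 0.15.

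Of the 6 leukocyte membrane and signalling members, 5 passed, with a median log2 ratio of 0.46. Of these 5, 4 were higher in Cbs null, Aif1 among them, and 1 was lower. Cd52, a surface glycopeptide of lymphocytes and myeloid cells, read 320.6 in control and 462.4 in Cbs null, 1.44-fold higher. Ms4a7, a membrane protein of resident macrophages, read 123.0 and 169.2, 1.38-fold higher, and Laptm5, a lysosomal protein of blood cells, read 269.5 and 352.7, 1.31-fold higher. Aif1, the calcium-binding protein IBA1, was under the floor in control at 31.3 and read 66.3 in Cbs null, at least 1.53-fold higher. As it crossed the floor in 1 sample, the size of its ratio depended on that floor and its direction was fixed by the filter.

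The tetraspanin gene Cd53 was the lower one, with 121.6 and 111.2, a log2 ratio of -0.13, within the technical SD. Ms4a6d read 43.8 in control and 35.9 in Cbs null and did not pass the filter. The transcription factor gene Maf was below the floor in both samples.

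The medians of the class II and the macrophage members were close. The 5 class II members that passed had a median log2 ratio of 0.49, from 0.13 for H2-DMa to 0.73 for H2-Eb1. The 27 other members that passed had a median of 0.43, from -0.49 for Csf1 to 0.87 for C1qa. Ranked among the log2 ratios of all genes that passed, C1qa lay at percentile 98.7, H2-Eb1 at 98.1, Cd74 at 94.4 and Csf1 at 5.13. The medians differed by 0.06. Technical error alone, taken as independent between genes, would give such a difference a spread of 0.14 (SD). That spread leaves out error shared by the genes of an array and variation between mice. At least 1.5-fold higher were 1 of the 5 class II members and 6 of the 27 others, Aif1 among them, beside the 3.64% of all genes that passed. Within the macrophage members, the 13 Fc receptor, integrin and surface receptor genes that passed had a median of 0.31, against 0.76 for C1q and 0.48 for the lysosomal and secreted members. The medians of so few genes describe these 2 arrays only.

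**Figure D3:**
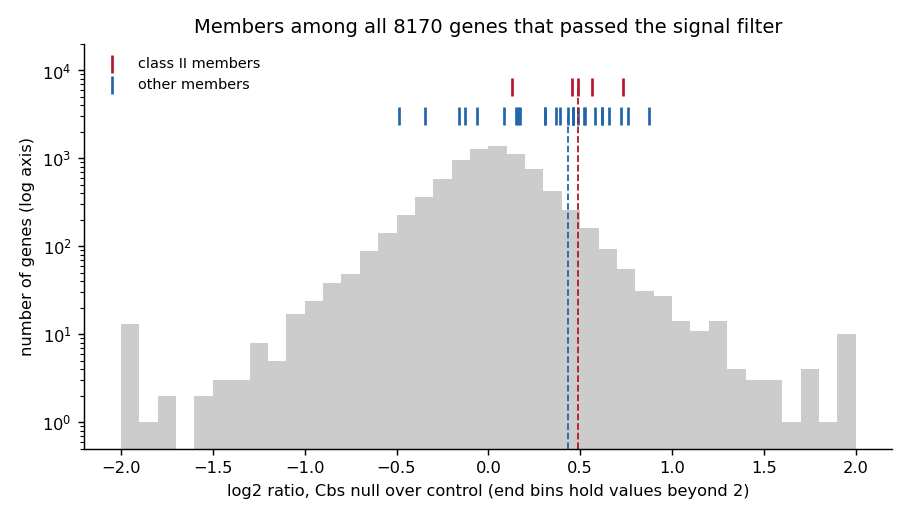
Histogram of the log2 ratio of Cbs null over control for the 8170 genes that passed the signal filter (number of genes on a log axis), with ticks for the class II members in red and the other members in blue, and dashed lines at their medians of 0.49 and 0.43. Both sets lie mainly on the right flank of the distribution and overlap each other.

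Further genes of the class II pathway had log2 ratios centred near 0. Of 22 such genes written down as a list, 19 had a probe set of their own and 13 passed, with 7 higher, 6 lower and a median log2 ratio of 0.03. H2-Oa, a chain of the H2-O inhibitor of peptide exchange, was under the floor in control at 25.6 and read 76.7 in Cbs null, at least 1.78-fold higher. Ctsd, the lysosomal aspartic protease cathepsin D, read 1051.5 and 1622.6, 1.54-fold higher. Rfxap, a subunit of the RFX complex that binds the X box, read 85.6 and 45.5, 1.88-fold lower, on 1 probe set near the floor.

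Of its partners, Rfx5 read 196.1 and 219.5 and Rfxank 63.2 and 79.9, and Nfyc, a subunit of the Y box factor NF-Y, read 341.0 and 347.9. Ctsb, the brightest gene of this list, read 4492.5 and 4937.9, a log2 ratio of 0.14, and Ctsz was lower, at 1213.4 and 929.9. The costimulatory genes Cd80, Cd86 and Cd40 were below the floor in both samples.

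In their order along the class II region of chromosome 17, from H2-Oa to H2-Ea, 15 genes were annotated and 12 had a probe set of their own. Of the 10 that passed, 9 were higher in Cbs null, where 53.6% of all genes that passed were. Brd2, H2-DMa and Psmb8 were higher by less than the technical SD. At least 1.5-fold higher were 3, H2-Oa, Psmb9 and H2-Eb1, against 3.64% of all genes that passed. H2-Oa passed only through its Cbs null signal, so its direction was fixed by the filter. Psmb9, an immunoproteasome subunit of the class I pathway, read 73.9 in control and 151.4 in Cbs null, 2.05-fold higher, while Tap1, which carries peptides to class I molecules and follows it in the order, stood at 0.23 and Psmb8, the next gene, at 0.19. Tap2 and Brd2, named here because they lie in the region, stood at -0.06 and 0.05. The class II chain genes H2-Ab1, H2-Aa and H2-Eb1, which follow each other in that order, stood at 0.56, 0.46 and 0.73.

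**Figure D4:**
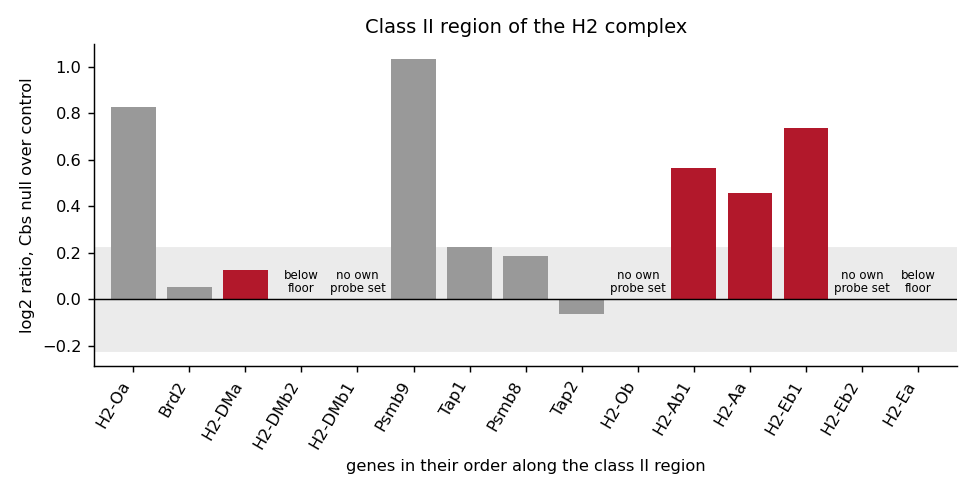
Log2 ratio of Cbs null over control for the genes of the class II region in their order along chromosome 17, not to distance, with members in red, other genes in grey and a grey band of 1 technical SD (0.22) either side of 0. H2-Oa, Psmb9 and the neighbours H2-Ab1, H2-Aa and H2-Eb1 reach well above the band, and genes below the floor or without a probe set of their own are marked; the bar of H2-Oa is a lower bound, as it was below the floor in control.

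The list was also set beside other macrophage genes. Of 44 further macrophage genes, 38 were on the array and 17 passed, with 9 higher, 8 lower and a median log2 ratio of 0.05, against 0.43 for the macrophage members. Mpeg1, a pore-forming protein of phagocytes, read 222.2 in control and 306.8 in Cbs null, 1.38-fold higher, and Apoe, which many cells make, read 1362.6 and 1947.4, 1.43-fold higher. Ccl8, a monocyte chemokine, read 107.7 and 255.2, 2.37-fold higher, and Retnla, a product of alternatively activated macrophages, read 263.8 and 141.5, 1.86-fold lower. Cyba and Axl, also bright, stood at 0.05 and -0.20. The myeloid factor gene Spi1, which encodes PU.1, and the oxidase gene Cybb were below the floor in both samples. Mpeg1 was chosen after its value was seen.

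Of 18 dendritic cell genes on the array, 7 passed, with a median of 0.17 and 6 of them higher. Among the 6 was Relb, at 43.1 in control and 48.4 in Cbs null. Relb passed only through its Cbs null signal, so its direction was fixed by the filter. Without Relb, the median of this list was 0.30. Irf8, a factor of dendritic cells and monocytes, read 160.9 and 215.5, 1.34-fold higher, and Cd83, an activation marker, 49.2 and 87.8, 1.78-fold higher. Zbtb46, a factor of classical dendritic cells, was the 1 that was lower, at 79.4 and 63.8, a log2 ratio of -0.32. Flt3, Xcr1, Cd209a, Ccr7 and Irf4, which define dendritic cell subsets or their activation, were below the floor in both samples, so among the members the dendritic part of the list's name rests on Itgax and on class II genes that other cells also express. The macrophage part is borne by bright signals of Csf1r, Lyz2 and C1q, although Itgam, Fcgr1, Cd163 and Trem2 were not above the floor.

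The interferon gamma response list, whose cytokine induces class II genes through CIITA, had a median of 0.08 over 14 genes, with 11 higher and 3 lower. Ifng read 0.7 in both samples, far below the floor. Irf1, a direct target of the pathway, read 300.8 and 302.1, the log2 ratio of smallest size among the 14. Their ratios ran from -0.10 for Cxcl10 to 1.03 for Psmb9, with Gbp3 next highest at 0.34. Psmb9 was its 1 gene at least 1.5-fold higher.

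Genes of all leukocytes had a median of 0.15 over the 10 of 14 that passed, with 6 higher and 4 lower. Ptprc, the CD45 antigen, read 347.7 in control and 389.4 in Cbs null, a log2 ratio of 0.16. B cell genes, which could also carry class II signal, were near background. Of 9 on the array 7 were below the floor in both samples, Cd79a, Cd79b, Ms4a1 and Pax5 among them. Jchain, a product of plasma cells, passed and read 1996.3 and 1260.8, a log2 ratio of -0.66. All 9 T cell genes were below the floor in both samples, with summed signals of 136.2 and 95.8.

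Genes of other tissues of the uterine wall also differed, epithelium in the direction of the members and smooth muscle in the opposite one. The 8 epithelium genes were all higher in Cbs null, with a median of 0.59 and summed signals of 3861.9 in control and 5843.0 in Cbs null, Cldn3 furthest at 2.07-fold. The 8 smooth muscle genes were all lower, with a median of -0.57 and summed signals of 34212.5 and 27032.1, Actg2 furthest at -0.77. The 8 endothelium genes had a median of -0.03 and the 8 fibroblast and stroma genes one of -0.09. Summed over the brightest probe set of each gene, the class II members gave 3923.4 and 5596.7 and the other members 5626.2 and 7545.3. The part of a different tissue makeup of the pieces in the members' difference was not tested.

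**Figure D5:**
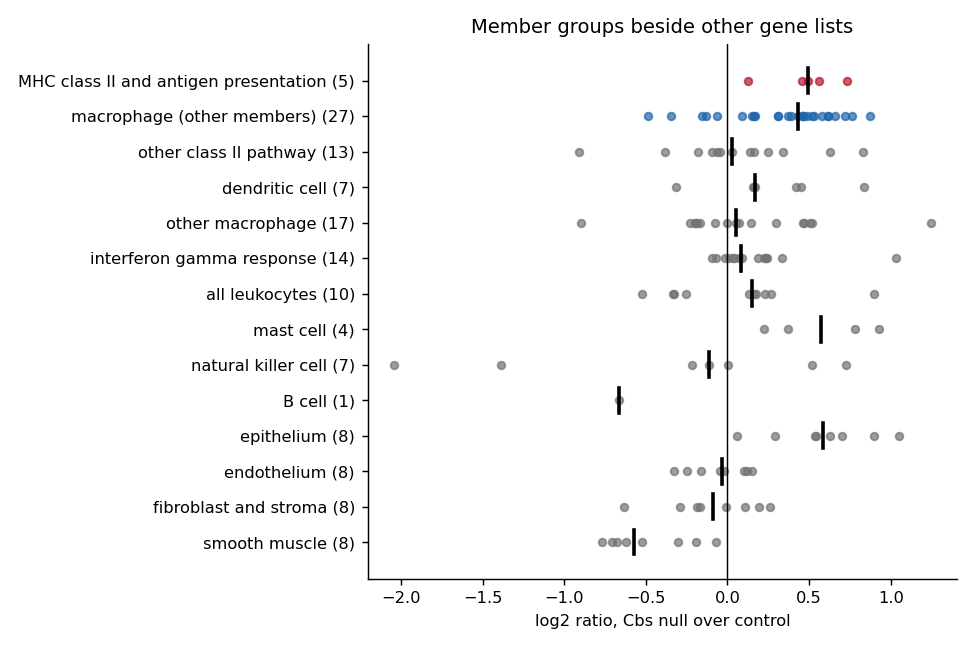
Log2 ratio of Cbs null over control for each gene that passed the signal filter, by list, with the number of genes in brackets and a black bar at the median; class II members are red and the other members blue. The medians of both member groups (0.49 and 0.43) lie near that of epithelium (0.59), and those of the other class II pathway and other macrophage lists (0.03 and 0.05) lie near 0.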

How the data were processed

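The deposited values are linear intensities, 1 for each probe set on each array, which the authors had already scaled (2% trimmed means of 200.08 and 200.07). Biotin-labelled cRNA was made from 2 microg of total RNA, per the labels' protocols, and the submitters' processing notes list GCOS 1.4. How probes were summarised is not given in the sources used here.

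Of 22690 probe sets, 20380 were annotated to 1 symbol, 691 to several and 1555 (controls aside) to none. Gene identifiers of 20351 matched RefSeq and changed no symbol. A gene is its probe set of highest mean log2 signal. With 1 array per group there is no test. Genes are described by a 1.5-fold rule, and the number of arrays limits the precision. Scaling assumes equal total signal, so differences are relative.

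Members, lists and settings were chosen with earlier results of these data known. All members are named. From other lists, genes were named by brightness, by size of the log2 ratio or as below the floor, and in the class II pathway and interferon lists also by role after their values were seen. The procedure was tested on simulated data. Analyses used Python 3.11.15, pandas 2.3.3 and numpy 2.4.6.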

Additional observations from a re-analysis of the deposited data

How the results depend on the processing

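Each group's median log2 ratio stayed above 0 under all alternatives run. The median of the class II members lay between 0.47 and 0.53, that of the macrophage members between 0.31 and 0.46, and their difference between 0.01 and 0.16. The macrophage median was 0.34 with a pseudocount in place of the floor, 0.31 with no filter and 0.33 as a mean. The median of all members was 0.36, 0.37 and 0.35 under the same settings. With no filter, weak genes at the floor on both arrays enter at a ratio of 0. Members called higher numbered 19 at 1.3-fold (9.34% of all genes) and 0 at 2-fold (0.796%), and 1 (Csf1) was called lower at 1.3-fold (8.25%). The other settings called 5 to 9 higher and 0 lower, 9 with the floor at the 20th percentile (6.73% of all genes higher) and 5 with a pseudocount (1.75%) or the floor at the 60th (2.21%). Of 285 values of single members under an alternative, 274 moved by less than the technical SD and none of at least 1.5-fold changed sign. The 11 others concerned C1qb and Fcgr2b, through the choice of probe set, and weak genes, through the floor. Many of the 274 could not move. The settings that change only the filter leave every single value as it was. The mean over probe sets does the same for members with a single probe set. The count therefore overstates how stable the values were. Aif1 was 1.08 with the floor at the 20th percentile and 0 at the 60th. Added after seeing the data, the macrophage median was 0.45 without Csf1, 0.46 without Cd53, Laptm5, Cd52 and Itgb2, and 0.41 without the C1q genes. No paired analysis was possible because each group has 1 array, and for the same reason no array could be left out.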

Other observations

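Mast cell genes, which belong to no comparison above, were also higher in the Cbs null sample. Of 8 on the array, 4 passed the signal filter and all 4 were higher, with a median log2 ratio of 0.57, summed signals of 380.5 in control and 657.9 in Cbs null, and 3 genes below the floor in both samples. Hdc, which makes histamine and is also known from uterine epithelium, read 165.4 in control and 314.8 in Cbs null, 1.90-fold higher, and its second probe set was 2.16-fold higher. Kit, the stem cell factor receptor, read 82.6 and 141.9, 1.72-fold higher. Cma1, a mast cell chymase, read 45.1 and 58.2. The protease gene Cpa3 was under the floor in control at 39.9 and read 50.4 in Cbs null, so its direction was fixed by the filter.

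Natural killer cell genes had a median of -0.11 over 7 genes that passed, with 3 higher and 4 lower. That median hides large differences in the granzyme genes. Gzmb read 177.8 in control and 12.6 in Cbs null, at least 4.12-fold lower. Gzma read 113.2 and 39.7, at least 2.62-fold lower. Both passed only through their control signal, so their direction was fixed by the filter. Klrk1, at 40.7 and 61.8, passed only through its Cbs null signal, so its direction was fixed too. The median over the 4 natural killer cell genes above the floor on both arrays was -0.05. Neutrophil genes were below the floor in both samples for 7 of 8 on the array, and S100a8 read 18.6 in control and 62.8 in Cbs null. Gzma, Gzmb, Klrk1, Relb, Cpa3, S100a8, H2-K1 and H2-D1 were chosen with their values known. The brightest probe sets of the class I genes H2-K1 and H2-D1 had log2 ratios of 0.08 and 0.00, beside 0.46 to 0.73 for the class II chain genes. Other H2-K1 probe sets stood at 0.05, -0.32 and -0.56, so the ratio of H2-K1 depended on the probe set. Those of H2-D1 above the floor on both arrays lay between -0.03 and 0.11.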
